A study of Homo sapiens with 2 samples.

Results

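Voltage-gated sodium channels open when the cell membrane depolarises and let sodium ions in, which starts and spreads the action potential in neurons and muscle. The pore and the voltage sensors of each channel lie in 1 large protein, the alpha subunit, and a family of SCN genes encodes these subunits. HEK293T, an established human line made from embryonic kidney cells and expressing the large T antigen of SV40, is widely used as a host for cloned sodium channels. The genes examined were chosen by name and comprised 8 alpha subunit genes of 57736 genes in the tables: SCN1A, SCN2A, SCN3A, SCN4A, SCN8A, SCN9A, SCN10A and SCN11A. The rule itself uses no measured value, and other alpha subunit genes were not analysed here.

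Poly(A)+ RNA of untreated HEK293T cells, given as wild type in the labels, was sequenced in 2 replicates with reads of 50 bp. The replicates held 10593491 and 10104118 estimated counts, that is, reads assigned to genes. There was 1 group, so no condition was compared with another, and the spread between the replicates may be technical, since separate cultures are not stated. The study compared RNA-Seq of cells before and after heat shock, for genes whose rDNA contacts it mapped. Only untreated cells are described here. In bulk RNA a low level in all cells and a higher level in a few cells cannot be told apart.

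HEK293T cells held little mRNA of these 8 genes, and most of the reads came from SCN8A and SCN9A. TPM is the share of a gene among all transcripts, corrected for length, with 1 fixed total per library. The TPM of the 8 genes added up to 5.72 in replicate 1 and 5.15 in replicate 2, a mean of 5.44 ± 0.403 (SD, n = 2). In reads the sums were 223.7 and 239.1 estimated counts. SCN8A and SCN9A together held 77.5% of these reads in replicate 1 and 73.6% in replicate 2. Their share of the summed TPM was 72.7% and 64.9%, and of the summed posterior mean TPM, a second estimate in the tables, 53.3% and 49.0%. Detection required a TPM of 1 or more in each replicate, and 2 of the 8 genes, SCN8A and SCN9A, passed. By the same rule 27.7% of all genes and 63.7% of 19391 protein-coding genes were detected. With a limit of 0.1 the number was 5 of 8 (SCN2A, SCN4A, SCN8A, SCN9A and SCN11A) against 74.1% of protein-coding genes, and with a limit of 0.5 it was 3 of 8 against 67.3%. None reached 5, a level that 51.7% of protein-coding genes passed. In FPKM, which is scaled by the reads and not by the transcripts, SCN8A alone reached 1 in both replicates, against 61.5%. The median mean TPM was 0.39 for the 8 genes and 6.50 for protein-coding genes.

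SCN8A encodes Nav1.6, the main channel of the axon initial segment and the nodes of Ranvier in the adult nervous system. The gene (ENSG00000196876) lies on chromosome 12 from 51984050 to 52206648 on the plus strand (GRCh37). The estimated count of SCN8A was 114.8 in replicate 1 and 116.13 in replicate 2, with exact 95% Poisson intervals of 94.9 to 138 and 95.9 to 139. Its TPM was 3.06 in replicate 1 and 1.57 in replicate 2, a mean of 2.32 ± 1.054 (SD, n = 2), higher than that of 40.7% of protein-coding genes. The reads were thus almost equal, whereas the TPM of replicate 1 was 1.95 times that of replicate 2. The posterior SD, which measures how uncertain the sharing of reads among genes is, was 4.70 and 5.53 counts, the largest among the 8 genes. A processed pseudogene, HNRNPA3P10, and a lncRNA, ENSG00000260122, lie inside SCN8A on the opposite strand. The exons of the lncRNA overlap those of SCN8A, and it had 0.54 and 2.74 counts.

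SCN9A encodes Nav1.7, a channel of peripheral sensory and sympathetic neurons known for its part in pain. The gene (ENSG00000169432) lies on chromosome 2 from 167051695 to 167232511 on the minus strand. SCN9A had 58.5 counts in replicate 1 and 59.97 in replicate 2, and its TPM was 1.10 and 1.77, a mean of 1.44 ± 0.474 (SD, n = 2). Again the reads were nearly the same in both replicates, but here replicate 2 had the higher TPM, by 1.61 times. The posterior SD was 0.84 and 0.43 counts.

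SCN4A, which encodes the skeletal muscle channel Nav1.4 (ENSG00000007314), lies on chromosome 17 from 62015914 to 62050278 on the minus strand. It had 22 counts in each replicate with a posterior SD of 0, and a TPM of 0.93 and 0.78. SCN2A encodes Nav1.2, a channel of excitatory neurons of the brain, and the gene (ENSG00000136531) lies on chromosome 2 from 166051503 to 166248820 on the plus strand. It had 19.27 counts in replicate 1 and 31 in replicate 2, and a TPM of 0.46 and 0.80. Both genes had reads in both libraries and stayed below a TPM of 1, with SCN4A the higher in replicate 1 and SCN2A in replicate 2. The counts of SCN4A were equal, and those of SCN2A had Poisson intervals that overlapped.

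The remaining 4 genes were at or near the limit of these libraries. SCN11A encodes Nav1.9 of sensory neurons that mediate pain and the gene (ENSG00000168356) lies on chromosome 3 from 38887255 to 39093648 on the minus strand. It had 6 and 7 counts, and a TPM of 0.12 and 0.18. Its first 145 bases overlap WDR48 on the opposite strand, with exons of both genes in the overlap, and WDR48 had 921 and 920 counts. No source used here says if strand entered the counting, so reads in overlapping exons cannot be told apart by gene. SCN3A (ENSG00000153253), best known from the developing brain as Nav1.3, lies on chromosome 2 from 165944036 to 166060560 on the minus strand. It had 3.12 and 2.03 counts with a posterior SD of 0.59 and 0.35, and a TPM of 0.05 and 0.03. SCN1A encodes Nav1.1 of inhibitory neurons and the gene (ENSG00000144285) lies on chromosome 2 from 166841151 to 167005724 on the minus strand. It had 0 counts in replicate 1 and 1 in replicate 2, where its TPM was 0.02. SCN10A (ENSG00000185313), the gene of Nav1.8 in sensory neurons, lies on chromosome 3 from 38738293 to 38857777 on the minus strand and had 0 counts in both replicates. A count of 0 allows up to 3 counts per library (a one-sided 95% limit, unlike the two-sided Poisson intervals used for the counts), which is a CPM of 0.283 in replicate 1 and 0.297 in replicate 2. The limits and intervals given here account for counting error alone, because PCR copies without molecular identifiers are not separate molecules.

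**Figure D1:**
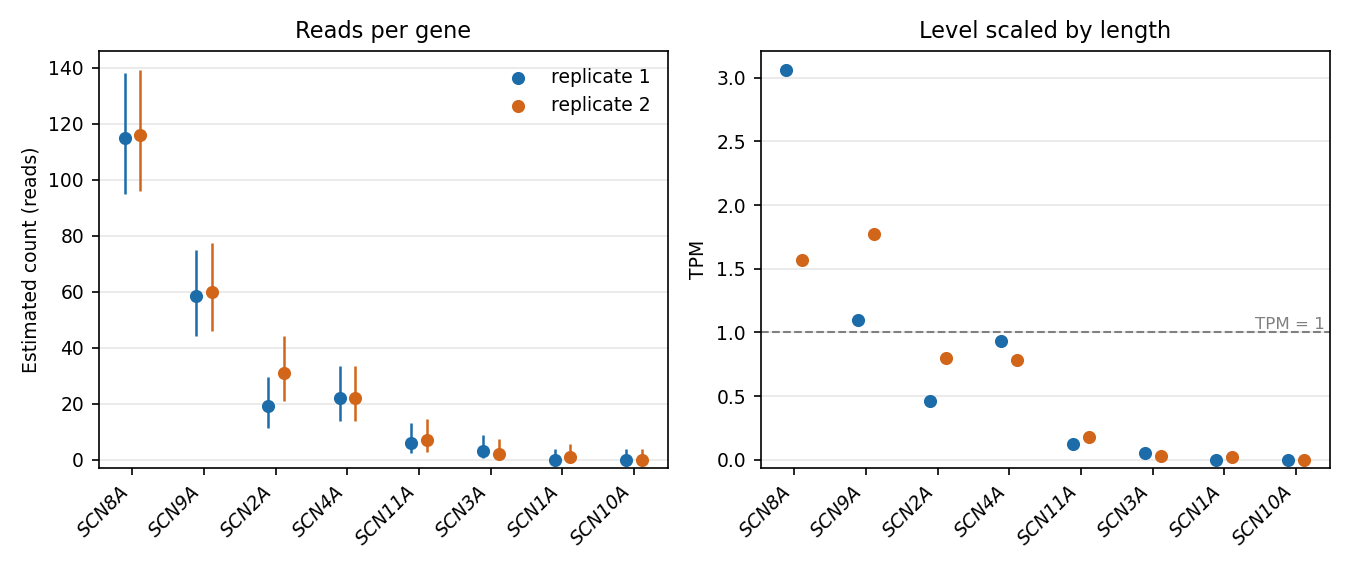
For the 8 alpha subunit genes in both replicates, the left panel shows estimated counts with exact 95% Poisson intervals of the rounded counts (lines) and the right panel TPM with a dashed line at 1. The points of SCN8A and SCN9A nearly coincide in counts (114.8 and 116.13, 58.5 and 59.97) but part in TPM (3.06 and 1.57, 1.10 and 1.77).

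The order of the genes depended on the length used. On TPM, SCN8A came first in replicate 1 at 2.78 times the level of SCN9A, while in replicate 2 SCN9A came first and SCN8A had 0.887 of its level. The TPM ranges of the 2 genes over the replicates overlapped. When the counts were divided instead by the longest annotated transcript of each gene, 11556 nt for SCN8A and 9768 nt for SCN9A, SCN8A was 1.66 and 1.64 times SCN9A in replicates 1 and 2. On this scale SCN8A had 9.93 counts per kb (counting interval 8.22 to 11.9) and SCN9A 5.99 (4.51 to 7.68) in replicate 1, and the intervals did not overlap in either replicate. With the same fixed length SCN9A also stayed apart from SCN4A, whose intervals reached 4.27 counts per kb in both replicates. SCN4A and SCN2A could not be ordered, at 2.82 and 1.65 counts per kb in replicate 1 and 2.82 and 2.66 in replicate 2, with overlapping intervals. Nor did the intervals separate SCN2A from SCN11A, SCN11A from SCN3A, or SCN3A from SCN1A and SCN10A. The TPM intervals deposited by the authors overlapped in both replicates for SCN8A and SCN9A, and for SCN9A and SCN4A. In replicate 1 they were 2.03 to 5.65 for SCN8A, 0.974 to 2.098 for SCN9A and 0.526 to 2.54 for SCN4A. The separation of SCN8A, SCN9A and SCN4A thus held for counting error at a fixed length, and not on the deposited TPM intervals. With 2 values per gene an exact permutation test cannot reach 0.05, so none was run.

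The length deposited for a gene is the mean over its transcripts, weighted by the estimated abundance of each transcript and not by its reads. For SCN8A, with 7 transcripts from 423 to 11556 nt, this length was 5077 nt in replicate 1 and 10367 nt in replicate 2. The effective length, that of possible read starts, was thus 2.05-fold longer in replicate 2, and the log2 ratio of TPM was -0.96 with a log2 ratio of counts of 0.02. SCN9A went the other way, with 7187 nt in replicate 1 and 4756 nt in replicate 2, and its effective length was 1.52-fold longer in replicate 1. For SCN4A the count was equal and the length was 3233 and 3988 nt. SCN2A was different in kind: its effective length differed by 1.04-fold, and the count by 1.61-fold. Of these 4 genes, each with 10 or more counts per replicate, 2 had an effective length that differed by at least 1.5-fold. Among 15067 genes with 10 or more counts in each library, 3.03% did. Those genes were not matched to the members in counts or in number of transcripts, so the shares are not like for like. This measure was chosen after the values of the members were seen, and which transcripts the reads came from was not tested.

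**Figure D2:**
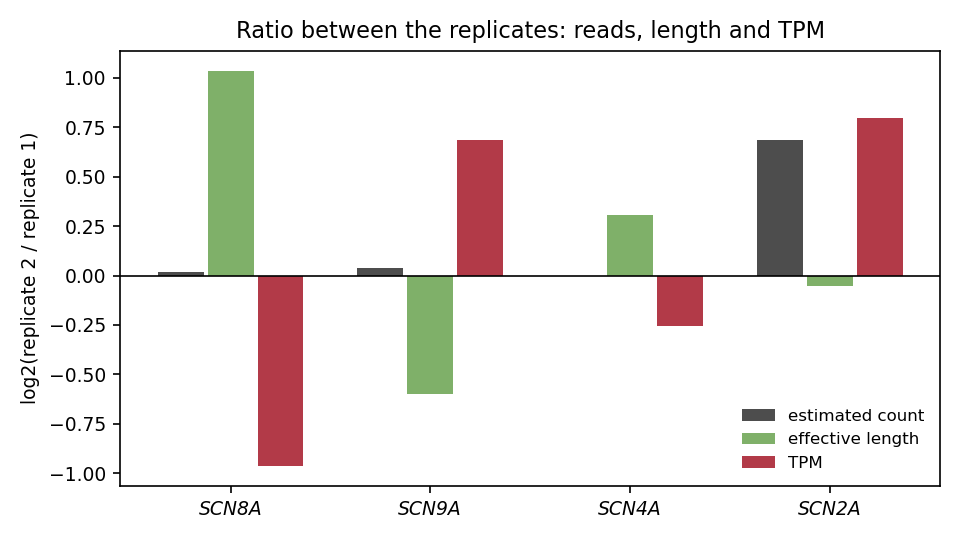
Log2 ratio of replicate 2 to replicate 1 for the estimated count, the effective length and the TPM of SCN8A, SCN9A, SCN4A and SCN2A. For SCN8A and SCN9A the TPM bar mirrors the length bar and the count bar is near 0 (0.02 and 0.04), and for SCN2A the TPM bar follows the count bar (0.80 and 0.69).

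Whether the libraries differed in reads of these genes was asked with the exact binomial test (two-sided, on rounded counts) over 17920 genes with at least 10 summed counts. It compares the libraries and not conditions. None of the 5 alpha subunit genes tested had an adjusted p of at most 0.05 (Benjamini-Hochberg over all genes tested), and 0 had an unadjusted p under 0.05. Of all genes tested 3.88% differed. The ratio of replicate 2 to replicate 1, after scaling for library size, was 1.06 for SCN8A (95% interval 0.816 to 1.39, exact adjusted p = 0.947). For SCN9A it was 1.09 (0.748 to 1.59, exact adjusted p = 0.948). The largest ratio was that of SCN2A, 1.72 (0.943 to 3.23), with an exact p of 0.066 and an adjusted p of 0.428. The intervals of SCN4A (0.558 to 2.00) and SCN11A (0.354 to 4.44) were wide. SCN1A, SCN3A and SCN10A had too few reads to be tested.

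The deposited intervals of TPM gave another view of the low genes. SCN1A, with a TPM of 0 in replicate 1, had an interval of 0.133 to 1.55, and SCN10A, also at 0, one that ended at 0.0588. The tables list 7 transcripts for SCN1A and 1 for SCN10A. The posterior mean TPM, the estimate that belongs to these intervals, was 1.39 and 1.42 for SCN3A, a gene with 3.12 and 2.03 counts and 9 transcripts. For SCN8A in replicate 2 the TPM of 1.57 lay below its own interval of 1.59 to 4.15. On the posterior mean 4 of the 8 genes (SCN3A, SCN4A, SCN8A and SCN9A) reached 1 in both replicates, against 74.2% of protein-coding genes. When 10 counts per replicate were asked for instead, the 4 genes were SCN2A, SCN4A, SCN8A and SCN9A, against 65.4%. The table of the pooled reads held the authors' values of 2.34 for SCN8A and 1.31 for SCN9A in TPM.

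The sequence before the RefSeq starts of the genes was compared, since it played no part in the choice of the genes. Promoters rich in the dinucleotide CG are common in genes used by many cell types, while promoters poor in CG are common in genes of single tissues. RefSeq promoters (GRCh38.p14) were at hand for 6 of the 8 genes, not for SCN3A and SCN4A. After allowing for the change of build, the starts of SCN8A, SCN2A and SCN10A lie inside the gene spans given above, that of SCN8A close to the outer end. A start of SCN1A and the less upstream start of SCN11A lie inside as well. They are thus internal starts, and the bases before the outer ends of SCN8A, SCN2A and SCN10A were not compared. The CG content of these genes is therefore not set side by side like for like. The 250 bases before the start are printed 5′ to 3′ on the gene's strand, with CG in capitals, for the 2 detected genes and for a gene with some reads and a gene with none. These are SCN8A (chr12:51590983-51591232, plus strand), SCN9A (chr2:166375945-166376194, minus strand), the first of a pair of SCN2A starts (chr2:165239164-165239413, plus strand) and SCN10A (chr3:38794011-38794260, minus strand).
SCN8A: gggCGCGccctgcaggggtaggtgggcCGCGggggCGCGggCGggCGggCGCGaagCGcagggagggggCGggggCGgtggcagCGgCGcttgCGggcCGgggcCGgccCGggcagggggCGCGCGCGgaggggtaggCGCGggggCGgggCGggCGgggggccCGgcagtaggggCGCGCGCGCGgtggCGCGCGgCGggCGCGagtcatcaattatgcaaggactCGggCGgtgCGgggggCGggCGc
SCN9A: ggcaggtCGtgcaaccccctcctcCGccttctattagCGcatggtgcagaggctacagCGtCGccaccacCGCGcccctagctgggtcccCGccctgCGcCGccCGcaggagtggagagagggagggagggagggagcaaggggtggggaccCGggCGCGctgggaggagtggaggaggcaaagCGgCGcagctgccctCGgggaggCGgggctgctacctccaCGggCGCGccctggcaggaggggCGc
SCN2A: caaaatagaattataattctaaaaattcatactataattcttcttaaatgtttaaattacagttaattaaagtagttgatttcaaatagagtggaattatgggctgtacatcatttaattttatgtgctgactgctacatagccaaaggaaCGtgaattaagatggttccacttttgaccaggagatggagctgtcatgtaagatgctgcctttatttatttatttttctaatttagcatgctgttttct
SCN10A: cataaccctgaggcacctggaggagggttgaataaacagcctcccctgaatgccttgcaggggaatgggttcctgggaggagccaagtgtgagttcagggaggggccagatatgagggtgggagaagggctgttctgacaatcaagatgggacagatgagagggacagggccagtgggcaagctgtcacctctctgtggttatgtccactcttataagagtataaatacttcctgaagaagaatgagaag

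The SCN8A promoter held 45 CG dinucleotides and the SCN9A promoter 22. At least as many were found in 0.589% and 28% of 35116 promoters of the same length, whose median was 11. The SCN2A promoter held 1 and the SCN10A promoter 0. The ratio of CG observed to that expected from the C and G content was 1.15 for SCN8A, 0.65 for SCN9A, 0.19 for SCN2A and 0 for SCN10A. Both starts of SCN1A were poor in CG, with ratios of 0.16 and 0.20. SCN11A had 2 unlike starts. The more upstream start held 21 CG with a ratio of 0.74, and the other held 2 with a ratio of 0.14. Among 10446 protein-coding genes with a ratio of at least 0.6 at some start, 85.1% were detected, and among 4552 others 24.8%. SCN8A, SCN9A and SCN11A belonged to the first of these classes, and SCN11A was not detected. SCN11A belonged to it only through its more upstream start, at the end of the gene that overlaps WDR48 on the opposite strand. These counts of letters describe the sequence only.

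**Figure D3:**
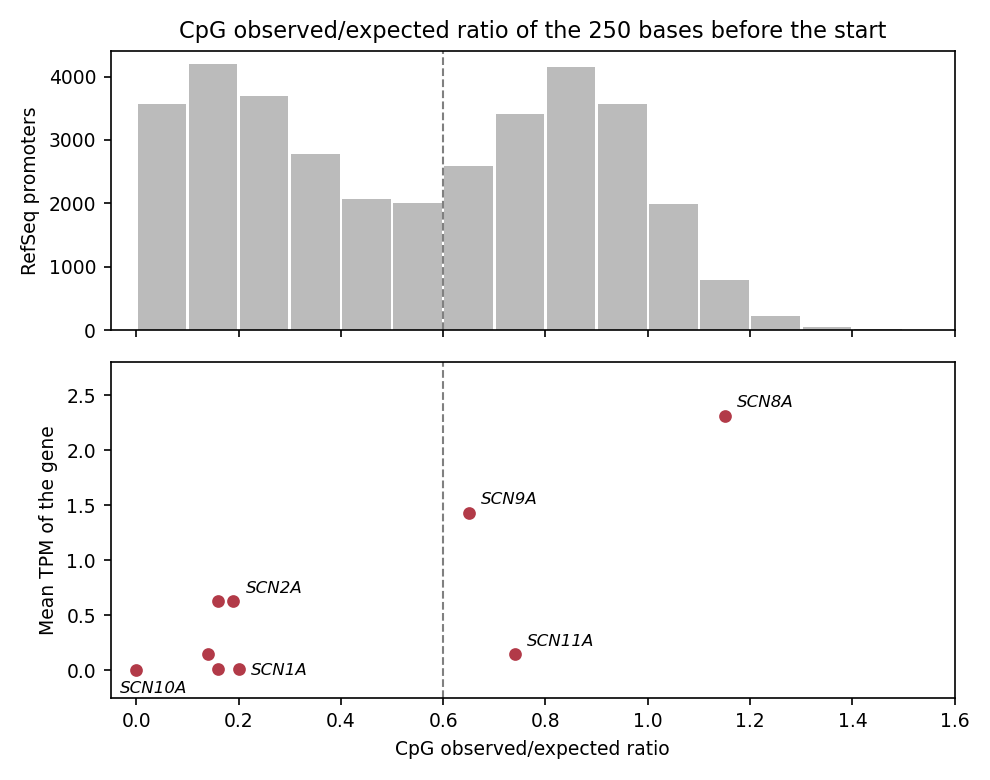
The top panel shows the number of RefSeq promoters by the ratio of observed to expected CG in the 250 bases before the start, and the bottom panel the mean TPM of 6 alpha subunit genes against that ratio, 1 point per start. Dashed lines mark a ratio of 0.6, above which lie SCN8A (1.15), SCN9A (0.65) and 1 of the SCN11A starts (0.74).

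Alpha subunits work with partner proteins, and 42 associated genes were grouped by role. A total of 26 of them were detected, a share near the 63.7% of all protein-coding genes, and the median mean TPM of the 42 was 3.22 against 6.50. Beta subunits are single-span membrane proteins that tune the gating and the surface level of the channel. The TPM of SCN3B was 0.78 in replicate 1 and 0.56 in replicate 2. SCN4B had 0.52 and 0.54, and SCN2B had 0.46 and 0.51. These 3 beta subunit genes had reads in both replicates and stayed below a TPM of 1.

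The fibroblast growth factor homologous factors bind the cytoplasmic tail of the alpha subunit. Of 4 genes FGF11 was detected, with a TPM of 7.18 and 7.16, and FGF14 had 0 counts in both replicates. FGF12 passed a TPM of 1 in replicate 1 alone (1.38 and 0.85). All 7 anchoring genes were detected. They include ANK3, whose product ankyrin-G holds the channels at the axon initial segment, with a TPM of 17.2 and 11.7, and SPTBN4, its spectrin partner, with 2.29 and 2.30. The 5 regulators were detected as well, from PRRT2 at 2.39 ± 0.403 to the kinase gene FYN at 90.7 ± 5.58 (SD, n = 2). NEDD4L, a ubiquitin ligase that removes sodium channels from the membrane, had a TPM of 10.47 and 13.02.

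The sodium leak channel, a relative that conducts at rest, was hardly represented. Its pore gene NALCN had 2 counts in replicate 1 and 0 in replicate 2, and none of the 4 genes of the complex was detected. REST represses neuronal genes outside the nervous system, and sodium channel genes are among its classical targets. REST had a TPM of 22.3 and 28.4, and the 5 partners listed with it were all detected, from RCOR1 at 27.4 ± 0.361 to HDAC2 at 243 ± 8.51 (SD, n = 2). Of 8 splicing regulators 6 were detected. PTBP1, which blocks neuronal exons in other cells, had a TPM of 654 and 599, while its neuronal counterpart PTBP2 had 35.1 and 31.1. SRRM4 and RBFOX1, which favour neuronal exons, had 0 counts in both replicates, and RBFOX2 had 90.7 and 85.5. Other regulators known from neurons were detected: RBFOX3 had a TPM of 2.22 and 1.47, NOVA1 16.4 and 15.1, and NOVA2 3.04 and 2.25.

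**Figure D4:**
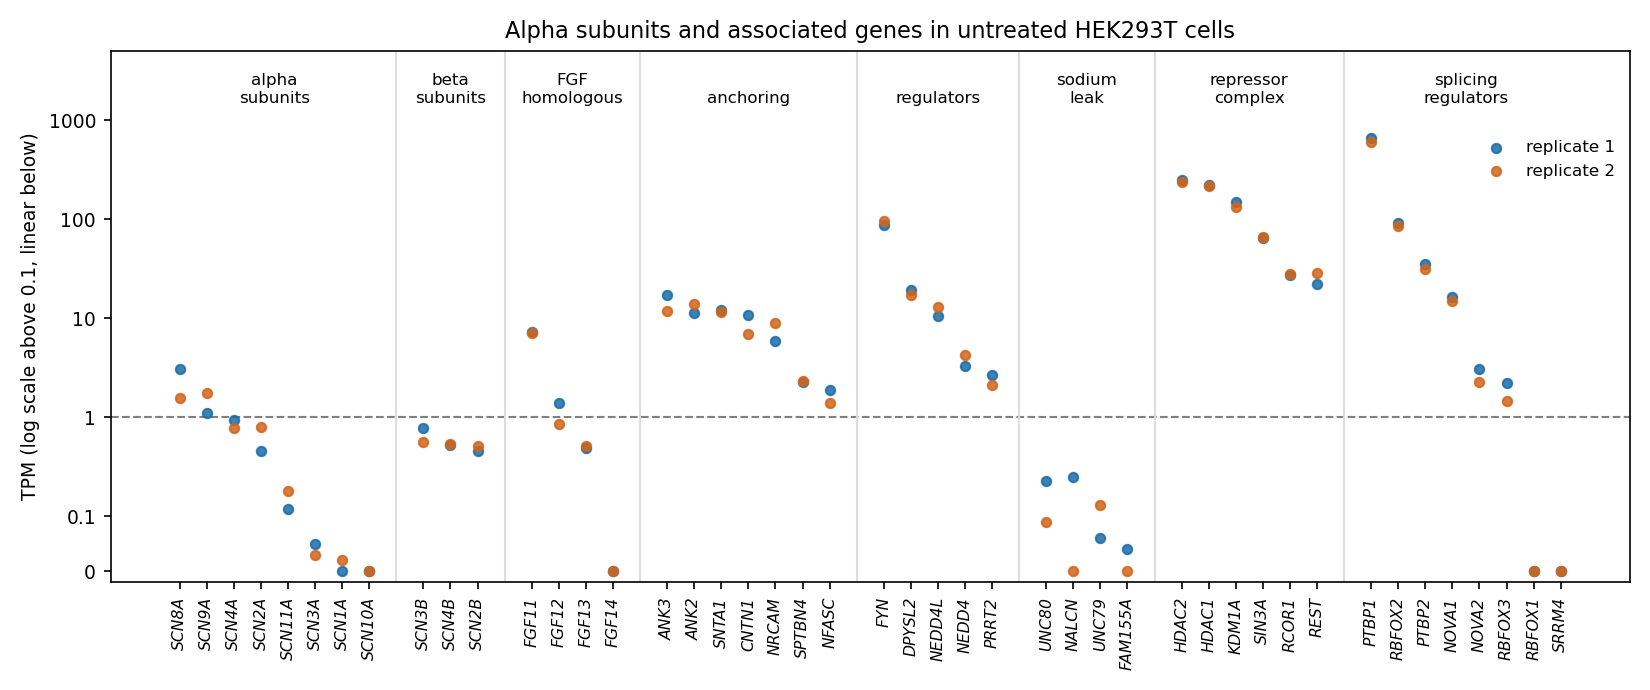
TPM of the alpha subunit genes and of associated genes by role in replicates 1 and 2, on an axis that is logarithmic above 0.1 and linear below, with a dashed line at 1. The alpha subunits reach 3.06 at most, whereas the anchoring genes lie between 1.39 and 17.2 and the repressor complex between 22.3 and 249.

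Markers of tissues in which these channels are known were read beside them. The share to set beside each list is the 63.7% of protein-coding genes detected by the same rule. Of 9 neuronal markers 5 were detected, UCHL1 being the highest with a TPM of 251 and 256. The others detected were NEFM (9.93 and 11.09), SYT1 (6.84 and 6.30), TUBB3 (6.67 and 6.48) and RBFOX3 (2.22 and 1.47). MAP2 had 0.70 and 0.82, ELAVL4 0 and 0.09, SNAP25 0 and 0.07, and STMN2 was listed at 0 in both. Of 6 sensory neuron markers only TRPV1 was detected (5.83 and 3.36), and CALCA and P2RX3 had no counts. Of 7 skeletal muscle markers only ACTA1 passed (1.03 and 1.3), and MYH1, MYH2, MYOG and TNNT3 had no counts, beside the 22 counts of SCN4A in each replicate. A total of 2 of 10 markers of the kidney epithelium, the tissue in the labels, were detected (LRP2 and PAX2), and 6 had no counts, UMOD and AQP2 among them. Of 4 glial markers MBP alone passed. The summed TPM in replicates 1 and 2 was 277 and 282 for the neuronal list, most of it UCHL1, and 7.24 and 5.26 for the sensory neuron list. It was 1.03 and 1.59 for muscle, 2.70 and 3.33 for glia and 12.9 and 12.6 for kidney epithelium. The part of any such cells in the reads of the sodium channel genes was not tested.

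The genes beside the members on the chromosome were read to learn whether low levels were shared. Of 42 different protein-coding neighbours within 250 kb, 25 (59.5%) were detected, near the 63.7% of all protein-coding genes. SCN8A lay among 9 such genes, 5 of them detected and each of those with a higher mean TPM than SCN8A, such as ACVR1B at 19.1 ± 1.28 (SD, n = 2). SCN11A and WDR48 were adjacent and overlapping yet had mean TPM values of 0.15 and 43.6. SCN10A, with no reads, had 3 detected neighbours outside the family. On chromosome 2, SCN3A and SCN2A overlap by 9058 bases on opposite strands, with no overlap of exons, and their mean TPM was 0.04 and 0.63. There SCN9A was the only member detected, with SCN1A at 0 and 0.02 on one side and SCN7A, an atypical relative that senses sodium, at 0 and 0.02 on the other. SCN1A-AS1, an antisense lncRNA whose exons overlap those of SCN1A and SCN9A, had 1.15 and 0 counts.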

How the data were processed

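RNA of HEK293T cells was analysed from 2 libraries. The submitters' processing notes name Trimmomatic 0.36, STAR 2.6.1c and RSEM 1.3.1 with GRCh37, while the study's methods name featureCounts. The columns are those of RSEM. The expected counts deposited by the authors divide a read that matches several genes among them. TPM and FPKM were deposited by the authors, scaled by effective length and by library. Posterior SDs and TPM interval bounds are further scores deposited by the authors. The level of the intervals and the use of strand are not given in the sources used here.

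Symbols, coordinates and transcript lengths came from GENCODE release 44 mapped to GRCh37, which matched 96.1% of identifiers. The longest transcript used for SCN2A has a retained intron. Counts were rounded, scaled by TMM (edgeR 4.0.16, R 4.3.3) and tested with the exact binomial test (scipy 1.17.1) where they summed to 10 or more, since edgeR's own test needs a second group. In simulated libraries (17961 genes tested), 190 of 200 genes with a 2-fold change and 10 unchanged genes were called. The 200 genes were drawn from those with a summed count of at least 100, and the simulated counts held Poisson noise alone. SCN2A, SCN4A and SCN11A had fewer counts, so this recovery does not cover them. Depth was 10593491 and 10104118 counts.

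The members and lists were chosen with earlier results of these data known. Genes named are members, genes of the lists by role and of markers, protein-coding genes within 250 kb, and overlapping genes. NEFL and sodium channel genes not named in the text were not analysed here. Alternatives were other thresholds, units, lengths, normalizations and filters, and leaving out each replicate.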

Additional observations from a re-analysis of the deposited data

How the results depend on the processing

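No paired analysis was possible because both libraries belong to 1 group. The number of alpha subunit genes detected was 2 without either replicate in turn and 3 at a TPM limit of 0.5. It was 5 at a limit of 0.1, 0 at a limit of 5 and 1 at an FPKM limit of 1, and it was 4 both at a limit of 10 counts and on the posterior mean TPM. The 2 rules that gave 4 shared SCN4A, SCN8A and SCN9A but not the fourth gene.

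The summed level of 5.44 TPM was 9.85 on the posterior mean TPM. In other units it was 3.84 FPKM, 22.4 CPM, 2.16 CPM per kb of the longest transcript and, in a comparison added after the data were seen, 3.61 per kb of a length common to both replicates. Without either replicate it was 5.15 to 5.72 TPM. The share of SCN8A was 42.0% of TPM, 30.5 to 53.5% without either replicate, 33.0 to 49.9% under the other settings, and so within the spread of the replicates. The number of alpha subunit genes that differed between the libraries was 0 under all 6 other settings of the exact binomial test, with 0 at an unadjusted p under 0.05 in each. Over all genes the test called 696, but 448 on posterior mean counts and 71 of the 8675 genes with whole counts, 2 of the 8 alpha subunit genes among those tested. The number of associated genes detected was 26, with 19 to 33 under the other settings and 26 to 27 without either replicate. At 2 to 31 counts a gene, depth limits what can be said of SCN2A, SCN3A, SCN4A and SCN11A.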

Other observations

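The epithelial sodium channel, which is not voltage-gated and carries sodium across kidney and airway epithelia, was read from 4 genes. SCNN1D had 53 and 65 counts in replicates 1 and 2 and was detected, with a TPM of 5.21 and 4.59, a mean of 4.90 ± 0.438 (SD, n = 2). SCNN1A had 2 and 1 counts, SCNN1B 0 and 1, and SCNN1G had 0 counts in both replicates. SCNN1D thus had fewer counts than SCN8A but a mean TPM above that of each of the 8 voltage-gated genes examined. The TPM ranges of SCNN1D and SCN8A over the 2 replicates did not overlap. However, the deposited interval of SCN8A in replicate 1 reached 5.65, above both values of SCNN1D. The deposited length of SCNN1D also changed, from 1412 nt in replicate 1 to 2018 nt in replicate 2.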
